A study of Mus musculus with 40 samples.

Results

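Regulatory T cells (Treg) circulating in blood were compared with Treg of the spleen. The comparison rests on 6 of the 40 libraries of the series, chosen by their labels alone: blood Treg replicates 2, 4 and 5 against spleen Treg replicates 2, 3 and 4, as the titles number them. Each library of the study holds 2000 sorted CD4+ cells of wild-type (WT) mice. Blood and spleen are among 10 sources, each with 3 Treg libraries and 1 of conventional CD4+ T cells (Tconv). Treg were the cells positive for a Thy1.1 reporter of Foxp3, Tconv were negative for it, and RNA was read by 3′ mRNA sequencing. All groups used here (blood, spleen, lymph node and liver Treg, and the Tconv of blood and spleen) share the WT genotype and the reporter. The labels list perfusion and tissue digestion as the treatment of every library, without saying whether blood was digested too, and they give neither the age of the mice nor which libraries share an animal. The p-values therefore measure the spread between these libraries, which may be technical.

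T cells enter the spleen from the blood and return to it along a gradient of sphingosine-1-phosphate (S1P), which is high in blood and low in lymphoid tissue. The receptor S1pr1 senses this gradient, the transcription factor Klf2 drives S1pr1, and the early activation protein Cd69 removes S1pr1 from the cell surface. Treg that have met antigen or matured into effector cells lower Klf2 and Ccr7 and carry more costimulatory and inhibitory receptors, while resting (central) Treg keep the lymphoid homing genes.

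Levels are given in CPM, read counts scaled to the library total after that total was multiplied by a trimmed-mean (TMM) scaling factor. Foxp3, the transcription factor that defines Treg, stood at 241, 226 and 277 CPM in the 3 blood Treg libraries and at 193, 243 and 206 CPM in the 3 spleen Treg libraries. The groups overlapped, and the Tconv libraries of blood and spleen had 0.693 and 0.852 CPM, so each of these libraries lay on the side its label gives. Cd3e and Cd4 were abundant in all of them. Total counts were 19114441 to 21734983 in blood Treg and 12197980 to 19459886 in spleen Treg. Over the 500 most variable genes, the distance of log2 CPM was 12.9 to 22.9 within blood, 15 to 20.4 within spleen and 35.5 to 40.8 between blood and spleen. Every distance between the sources was therefore larger than every distance within one.

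Of 17909 genes tested, 272 (1.52%) passed at an adjusted p below 0.05 in edgeR's quasi-likelihood test with Benjamini-Hochberg adjustment, fitted on the 30 Treg libraries of all sources. Blood Treg were higher in 77 of them (0.43% of the genes tested) and lower in 195 (1.09%), the background for the list counts below. The changes downward were the larger ones: 178 of the 195 genes were at least 2-fold lower in blood, and 43 of the 77 at least 2-fold higher. The median log2 fold change was 1.07 among the genes that rose in blood and -2.23 among those that fell. In all 77 and all 195, the 3 blood and the 3 spleen libraries did not overlap, which also held for 13.5% of all genes in the upward and 12% in the downward direction. An unadjusted p below 0.05 was reached by 2266 of the 17909 genes (12.7%), the background for the unadjusted counts given below.

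How many genes passed depended on the libraries fitted and on the tool. On the same 30 libraries, DESeq2 called 781 of the 16084 genes it gave an adjusted p, and limma-voom 1829 of 17909. These are the backgrounds for the counts by the 2 tools in the lists below. When the 6 libraries were fitted alone, 1531 of the 13405 genes left by the same filter passed (11.4%), 779 higher and 752 lower in blood (5.81% and 5.61%), and 266 of the 272 were among them in the same direction. The share of calls that were higher in blood was 28.3% with 30 libraries and 50.9% with 6. The median standard error over the genes tested in both fits was 0.39 with 30 libraries and 0.24 with 6. Leaving out blood replicate 2, 4 or 5 left 155, 107 or 81 calls, and leaving out spleen replicate 2, 3 or 4 left 118, 125 or 150. Of the 77 and 195 genes, 15 and 52 passed in each of these 6 fits.

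**Figure D1:**
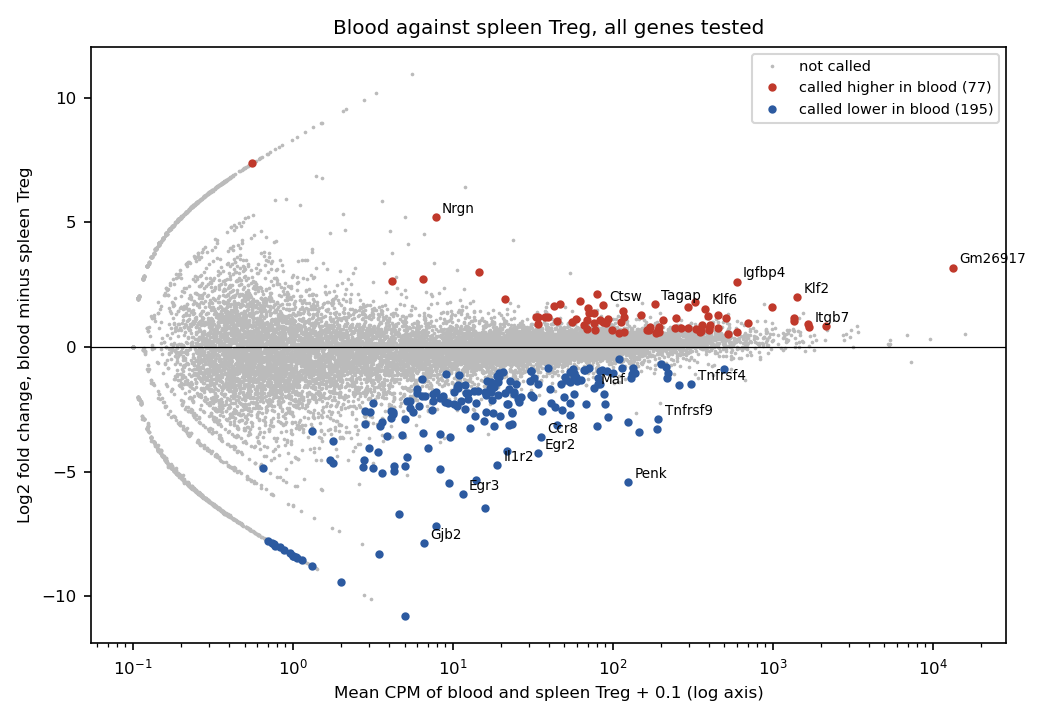
Each point is 1 of 17909 genes, by its mean CPM over blood and spleen Treg (log axis, with 0.1 added) and its log2 fold change, blood minus spleen. Red points are the 77 genes called higher and blue points the 195 called lower in blood; the blue points reach further from 0 than the red ones, apart from Nrgn and a predicted gene at the left edge.

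The 3 genes that mark egress from lymphoid tissue did not move alike. Klf2 (ENSMUSG00000055148.7, mm10 chr8:72319033-72321656, + strand) rose in blood, S1pr1 (ENSMUSG00000045092.8, chr3:115710433-115715072, - strand) was higher in every blood library without passing the test, and Cd69 (ENSMUSG00000030156.5, chr6:129267325-129275436, - strand) overlapped. Klf2 stood at 2344, 2172 and 2342 CPM in blood Treg and at 480, 638 and 581 CPM in spleen Treg. The lowest blood library was far above the highest spleen library, and the log2 fold change was 2.01 ± 0.36 (SE, n = 3 against 3, edgeR adjusted p = 0.00239). Klf2 passed in each fit that left out a library, with an edgeR adjusted p of at most 0.0259. Liver Treg had 1770 to 2120 CPM of Klf2, so the high level was not confined to blood. In bulk libraries, fewer cells with a transcript and less of it per cell cannot be told apart, here and below.

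S1pr1 was read at 1285, 1169 and 1176 CPM in blood and at 635, 612 and 518 CPM in spleen. The groups did not overlap, yet the log2 fold change of 1.04 ± 0.42 had an edgeR adjusted p of 0.277. In the fit of the 6 libraries alone it was 1.02 ± 0.11, with an edgeR adjusted p of 0.000182. Liver Treg had 1104 to 1141 CPM of S1pr1, below every blood and above every spleen library. Cd69 had 179, 285 and 332 CPM in blood and 223, 209 and 107 CPM in spleen. Blood replicate 2 lay below 2 of the spleen libraries, and the log2 fold change of 0.56 ± 0.33 had an edgeR adjusted p of 0.503. Of the 14 genes listed for egress, Klf2 alone passed, and the median log2 fold change was 0.41 against 0.00 over all genes tested. S1pr4, a second S1P receptor of lymphocytes, had 131 to 179 CPM in blood and 86.5 to 118 CPM in spleen (log2 fold change 0.52 ± 0.17, edgeR adjusted p = 0.147). Rgs1, a regulator of G protein signalling that dampens chemoattractant receptors, had 129 to 198 CPM in blood and 225 to 398 CPM in spleen (-1.09 ± 0.54, adjusted p = 0.404). Neither group pair overlapped, and neither gene passed.

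The start region of Klf2 is shown because Klf2 led this group, and because factors of its family bind CACCC sequences. The window is chr8:72318812-72319111 on the + strand of GRCm38.p6, from RefSeq. Capitals mark its 1 match to CCACCC, which reads GGGTGG because it lies on the opposite strand.
Klf2 promoter: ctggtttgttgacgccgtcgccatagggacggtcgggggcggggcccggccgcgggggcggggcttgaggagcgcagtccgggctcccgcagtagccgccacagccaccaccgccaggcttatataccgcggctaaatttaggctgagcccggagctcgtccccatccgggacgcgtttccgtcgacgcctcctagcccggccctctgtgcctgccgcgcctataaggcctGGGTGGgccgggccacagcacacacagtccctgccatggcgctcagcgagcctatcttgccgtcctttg

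Among 24 adhesion genes, integrin chains for the most part, 2 rose in blood and 1 fell, and the median log2 fold change was 0.16. Itgb7, the beta chain that pairs with Itga4 for entry into gut tissue, stood at 2430, 2078 and 1948 CPM in blood and at 1238, 1315 and 1099 CPM in spleen. The groups lay well apart (0.82 ± 0.19, edgeR adjusted p = 0.0201). Itgb8, an integrin chain with which Treg activate latent TGF-beta, fell from 39.3, 54.0 and 34.2 CPM in spleen to 9.49, 7.36 and 10.9 CPM in blood (-2.20 ± 0.40, adjusted p = 0.00324). Itgb3 had 149, 201 and 159 CPM in blood and 55.8, 69.2 and 62.0 CPM in spleen (1.45 ± 0.34, adjusted p = 0.0264). Itgb3 is also a platelet integrin. The list of platelet markers took 0.0160% to 0.0322% of counts in blood and 0.00676% to 0.00802% in spleen. That list includes Itgb3 itself, so these shares are not a separate measure of platelets. The part of platelets in the values of Itgb3 was not tested. Itgb8 passed in every fit that left out a library, whereas Itgb7 and Itgb3 failed in all 6 of them, with adjusted p up to 0.115 and 0.139.

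Selplg, the core protein of P-selectin ligand, had 1457, 1249 and 1191 CPM in blood and 726, 826 and 749 CPM in spleen. The groups did not overlap, but with 30 libraries the log2 fold change of 0.76 ± 0.21 had an edgeR adjusted p of 0.0625. With the 6 libraries alone, the adjusted p was 0.00128.

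Of 16 chemokine receptors, 1 fell in blood and none rose, with a median log2 fold change of -0.70. Ccr8, a receptor of effector and tissue Treg, stood at 7.81, 4.95 and 3.31 CPM in blood and at 79.1, 72.0 and 45.1 CPM in spleen. Its log2 fold change was -3.61 ± 0.45 (edgeR adjusted p = 4.84e-05), and it passed in every fit that left out a library. Ccr7, which guides T cells into the T zones of lymphoid organs, had 1482, 1366 and 1222 CPM in blood and 454, 352 and 433 CPM in spleen. These groups lay far apart, but the log2 fold change of 1.72 ± 0.78 had an adjusted p of 0.358 with 30 libraries, and 1.71e-05 with 6. Cxcr3, the receptor of interferon-induced chemokines, had 51.0 to 89.8 CPM in blood and 140 to 196 CPM in spleen (-1.30 ± 0.38, adjusted p = 0.0899). Cxcr5, the receptor for entry into B cell follicles, had 17.3 to 41.7 CPM in blood and 55.9 to 87.5 CPM in spleen (-1.42 ± 0.48, adjusted p = 0.167). Neither Cxcr3 nor Cxcr5 overlapped between the groups, and neither passed. In the fit of 6 libraries, 6 of the 14 receptors tested were lower and 1 was higher in blood, against 5.61% and 5.81% of all genes.

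Of 22 factors and surface genes of resting Treg, 20 had a log2 fold change above 0. The median was 0.76, against 0.00 over all genes tested. Of the 22, 3 passed, all higher in blood, against 0.43% of all genes called in that direction. Klf3, a repressor of the same family as Klf2, stood at 628, 719 and 756 CPM in blood and at 320, 328 and 298 CPM in spleen (1.15 ± 0.22, edgeR adjusted p = 0.00429). Igfbp4, an insulin-like growth factor binding protein that naive T cells express, rose from 139, 138 and 219 CPM in spleen to 1085, 992 and 996 CPM in blood (2.63 ± 0.60, adjusted p = 0.0232). Both groups were well separated for each gene, but Igfbp4 passed in none of the fits that left out a library (adjusted p up to 0.128). Ets1, a factor needed for T cell quiescence, had 3908 to 4677 CPM in blood and 2321 to 2565 CPM in spleen, with no overlap and no call (0.85 ± 0.28, adjusted p = 0.146). Lef1, Satb1 and Bach2, factors of naive and resting T cells, did not pass either. Lef1 had 553 to 694 CPM in blood and 280 to 341 CPM in spleen (adjusted p = 0.246), Satb1 621 to 933 and 286 to 315 CPM (adjusted p = 0.375), and Bach2 108 to 161 and 60.7 to 67.6 CPM (adjusted p = 0.376), with no overlap. They are named after their values were seen. With the 6 libraries alone, 15 of the 22 genes were higher and 1, Myb, was lower, against 5.81% and 5.61% of all genes.

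The start region of Klf3 is shown beside that of Klf2, since these are the members of the Klf family in this list that passed. It spans chr5:64803271-64803570 on the + strand of GRCm38.p6, from RefSeq. Capitals mark 3 matches to CCACCC, 2 of them as written and 1, the GGGTGG, on the opposite strand.
Klf3 promoter: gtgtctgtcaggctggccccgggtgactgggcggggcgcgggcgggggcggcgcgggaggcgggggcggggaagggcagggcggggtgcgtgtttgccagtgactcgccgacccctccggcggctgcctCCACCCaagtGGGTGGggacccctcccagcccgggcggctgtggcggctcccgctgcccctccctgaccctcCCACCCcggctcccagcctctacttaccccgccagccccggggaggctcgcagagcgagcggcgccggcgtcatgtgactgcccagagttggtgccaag

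**Figure D2:**
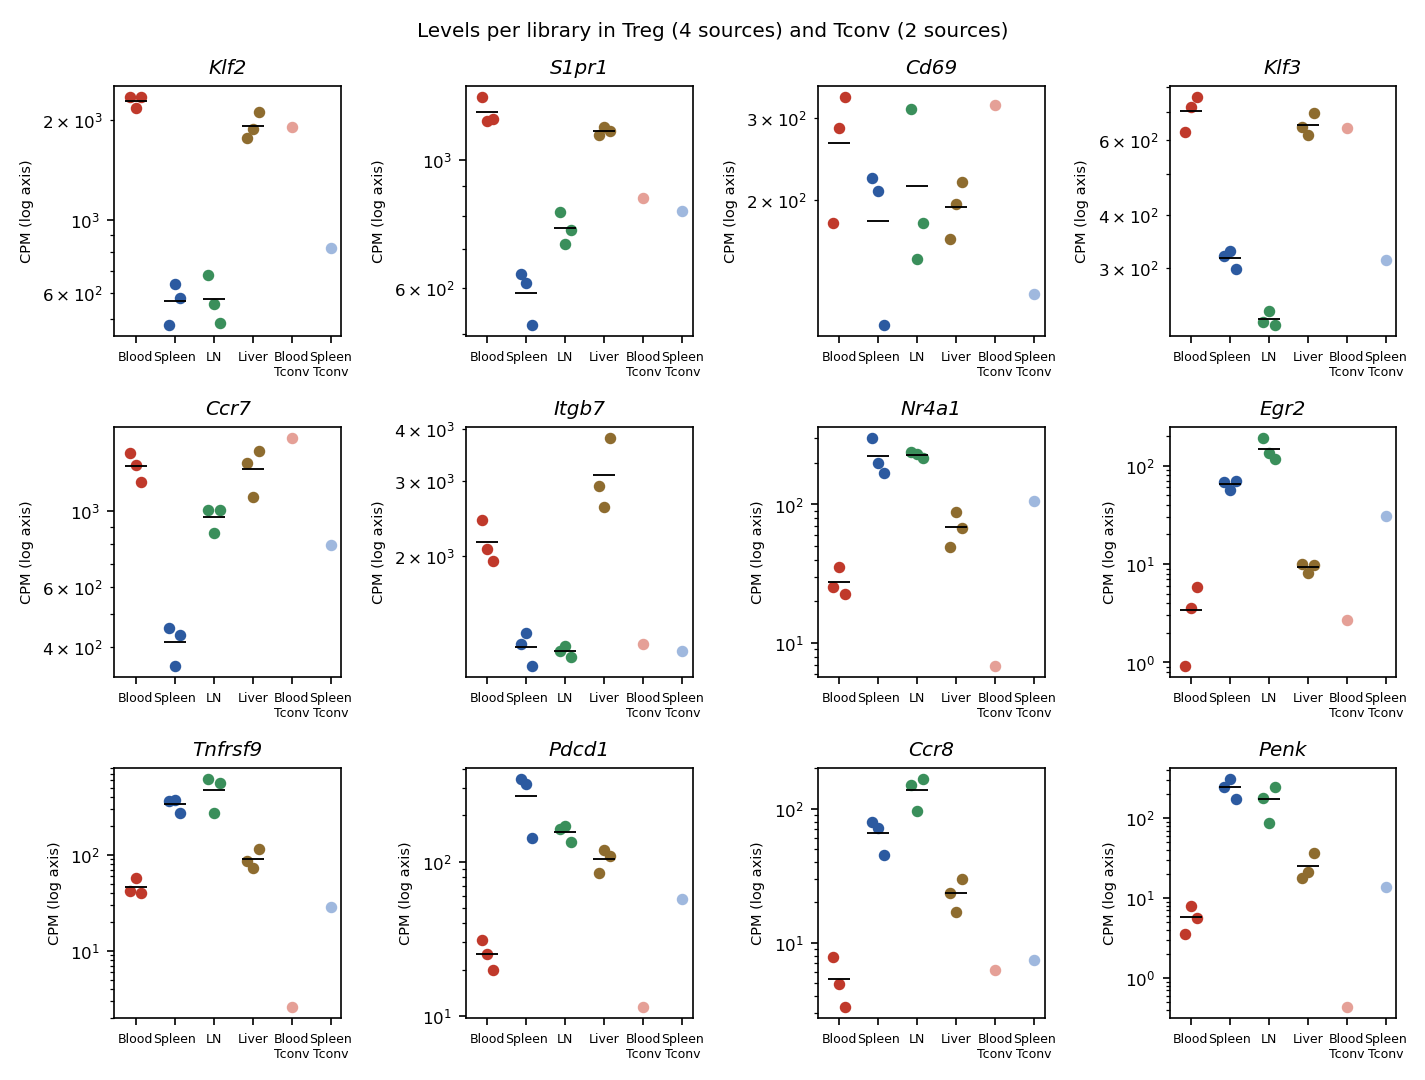
CPM per library on a log axis for 12 genes, in Treg of blood, spleen, lymph node (LN) and liver (3 libraries each, with a bar at the mean) and in Tconv of blood and spleen (1 library each). The blood Treg points lie above the spleen Treg points for Klf2, S1pr1, Klf3, Ccr7 and Itgb7 and below them for Nr4a1, Egr2, Tnfrsf9, Pdcd1, Ccr8 and Penk, while those of Cd69 overlap.

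Genes induced within an hour of stimulation split by family. Of 27 such genes, 6 fell in blood and 1 rose, and the median log2 fold change was -0.56. Egr3 (ENSMUSG00000033730.4, chr14:70077203-70082614), a factor induced through the T cell receptor, was read at 0.434, 0 and 0.699 CPM in blood and at 20.3, 22.7 and 24.7 CPM in spleen. Its log2 fold change was -5.89 ± 0.75 (edgeR adjusted p = 6.38e-05). Egr2 (ENSMUSG00000037868.15, chr10:67535475-67542188), its close relative, had 0.922, 3.56 and 5.78 CPM in blood and 68.3, 56.2 and 70.1 CPM in spleen. The lowest spleen library was far above the highest blood library (-4.23 ± 0.56, adjusted p = 8.32e-05). Egr1 fell from 187, 132 and 170 CPM in spleen to 21.9, 24.9 and 22.4 CPM in blood (-2.82 ± 0.39, adjusted p = 0.00015). These 3 passed in every fit that left out a library.

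Nfkbid, an inhibitor-like regulator of NF-kB, stood at 15.4 to 20.7 CPM in blood and 68.3 to 114 CPM in spleen (-2.26 ± 0.45, edgeR adjusted p = 0.00685). It lost the call without blood replicate 2 or 5 (adjusted p up to 0.0558). The orphan nuclear receptors Nr4a1 and Nr4a2, which report recent receptor signalling, also fell. Nr4a1 had 25.4, 35.2 and 22.8 CPM in blood and 300, 198 and 169 CPM in spleen (-3.00 ± 0.65, adjusted p = 0.0143). Nr4a2 had 0.463 to 0.606 CPM in blood and 20.7, 16.9 and 10 CPM in spleen (-4.87 ± 1.18, adjusted p = 0.033). Nr4a1 kept its call without spleen replicate 3 or 4 and lost it without any of the other 4 libraries, and Nr4a2 lost it without any single library. Nr4a3 had 1.90 to 3.08 CPM in blood and 18.0 to 43.8 CPM in spleen, apart but not called (-3.50 ± 0.97, adjusted p = 0.0704).

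Klf6 went the other way, from 155, 263 and 166 CPM in spleen to 589, 532 and 579 CPM in blood (1.54 ± 0.34, edgeR adjusted p = 0.0159). It lost the call without blood replicate 5 or spleen replicate 2 or 4. The AP-1 genes Fos and Jun did not pass. Fos had 4.99 to 11 CPM in blood and 6.55 to 16.3 CPM in spleen (-0.42 ± 0.86, adjusted p = 0.951), and Jun had 20.8 to 63.2 and 10.2 to 49.1 CPM (0.61 ± 0.75, adjusted p = 0.855). Both overlapped between the groups. The labels do not say whether blood was digested, so handling and source cannot be told apart for these genes, the falling Egr and Nr4a genes included. Of 15 heat shock genes 0 passed in edgeR's test and 0 had an unadjusted p below 0.05, against 0 with DESeq2, 1 with limma-voom and 2, both higher in blood, in edgeR's fit of the 6 libraries, and the median was 0.37. Hspa8 had 888 to 1793 CPM in blood and 532 to 1123 CPM in spleen (0.73 ± 0.40, adjusted p = 0.472). Genes of this and the preceding paragraph beyond Egr1, Egr2, Egr3, Nfkbid and Hspa8 are named after their values were seen.

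The start region of Egr2 is shown because Egr2 was among the 3 Egr genes that fell, and serum response elements, which hold a CArG box, are known to drive the Egr genes. RefSeq lists several starts for it, and the window printed is chr10:67537619-67537918 on the + strand of GRCm38.p6. The first capitals mark a match to CCACCC on the opposite strand and the second a CArG box, and the matches do not overlap.
Egr2 promoter: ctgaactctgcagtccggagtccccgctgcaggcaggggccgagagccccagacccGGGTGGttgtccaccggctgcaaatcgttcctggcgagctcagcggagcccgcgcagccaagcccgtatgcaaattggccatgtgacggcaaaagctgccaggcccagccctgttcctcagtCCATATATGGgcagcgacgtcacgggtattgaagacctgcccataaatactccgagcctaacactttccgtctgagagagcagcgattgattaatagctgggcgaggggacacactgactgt

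Receptors and suppressor genes that set Treg apart from other CD4+ T cells were the largest group of falling genes among the lists. Of 29, 10 fell in blood and none rose, with a median log2 fold change of -0.62. Pdcd1 (PD-1), an inhibitory receptor, stood at 31.2, 25.3 and 19.7 CPM in blood and at 343, 319 and 143 CPM in spleen (-3.40 ± 0.39, edgeR adjusted p = 2.34e-05). Spleen replicate 4 was the lowest of the spleen libraries and was still above all blood libraries. Tnfrsf9 (4-1BB), a costimulatory receptor of activated cells, fell from 367, 375 and 276 CPM in spleen to 42.4, 56.8 and 39.7 CPM in blood (-2.87 ± 0.37, adjusted p = 6.6e-05). Ebi3, a chain of the cytokines IL-27 and IL-35, had 3.12 to 7.05 CPM in blood and 28 to 63.5 CPM in spleen (-3.12 ± 0.41, adjusted p = 8.32e-05). The inhibitory receptor Lag3 had 0.509 to 0.705 CPM in blood and 6.44 to 7.77 CPM in spleen (-3.55 ± 0.50, adjusted p = 0.000171). These 4 passed without any single library.

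The other 6 that fell were Itgb8, given above, Tigit, Tnfrsf4 (OX40), Cish, Izumo1r (folate receptor 4) and Il10, which are named as the rest of the count. Their log2 fold changes were -1.98 for Tigit, -1.50 for Tnfrsf4, -1.09 for Cish, -0.88 for Izumo1r and -3.79 for Il10. Of these 5, Cish, Izumo1r and Il10 passed in none of the fits that left out a library, Tnfrsf4 in 1 and Tigit in 3. The core genes of Treg identity did not pass. Beside Foxp3, Il2ra, the high-affinity chain of the IL-2 receptor, had 641 to 654 CPM in blood and 457 to 530 CPM in spleen (0.38 ± 0.23, edgeR adjusted p = 0.522). Ctla4 had 231 to 298 and 234 to 422 CPM (-0.41 ± 0.46, adjusted p = 0.828). Ikzf2 (Helios) had 201 to 219 and 356 to 601 CPM, apart but just outside the threshold (-1.09 ± 0.28, adjusted p = 0.0511). The last 3 are named after their values were seen.

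Of 21 transcription factors of effector and tissue Treg, 4 fell in blood, against 1.09% of all genes, and none rose. In this list 19 had a log2 fold change below 0, and the median was -0.91 against 0.00 over all genes tested. Bhlhe40, a factor induced by activation, had 11.5, 9.44 and 6.53 CPM in blood and 96.9, 73.2 and 70.5 CPM in spleen (-3.13 ± 0.57, edgeR adjusted p = 0.00341). Maf, which drives Il10, had 52.8, 35.8 and 23.4 CPM in blood and 92.6, 149 and 106 CPM in spleen (-1.63 ± 0.31, adjusted p = 0.00479). Both genes were separated between the groups. Batf, an AP-1 factor needed for tissue Treg, had 41.5 to 56.9 and 98.2 to 142 CPM (-1.24 ± 0.30, adjusted p = 0.0327), and Hic1, a repressor that answers to retinoic acid in intestinal T cells, had 2 to 6.67 and 14.7 to 37.6 CPM (-2.24 ± 0.53, adjusted p = 0.0281). Bhlhe40 kept its call without any single library, Maf lost it without blood replicate 5 (adjusted p = 0.0696), Hic1 without any blood library or spleen replicate 2, and Batf without any single library. Of 15 follicular T cell genes, 2 fell and none rose, with a median of -0.61. These were Pdcd1 and Tox2, a factor of follicular helper cells, at 20.1, 4.35 and 6.95 CPM in blood and 58.3, 89.1 and 38.0 CPM in spleen (-2.57 ± 0.44, adjusted p = 0.00168).

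Among 29 cell division genes, 3 fell in blood, against 1.09% of all genes, and none rose. In this list 25 had a log2 fold change below 0, and the median was -0.96 against 0.00 over all genes tested. Tk1, the thymidine kinase of S phase, had 5.58, 1.90 and 2.19 CPM in blood and 12.4, 21.1 and 12 CPM in spleen (-2.23 ± 0.52, edgeR adjusted p = 0.0255). Cdk1, the kinase of mitosis, had 0.787 to 1.19 and 5.66 to 8.91 CPM (-2.83 ± 0.69, adjusted p = 0.033). Ccna2, a cyclin of S phase and mitosis, had 0.463 to 3.58 and 5.08 to 15.9 CPM (-2.61 ± 0.68, adjusted p = 0.0471). All 3 genes were apart, and blood replicate 2 was the highest blood library for each of them. Each lost its call in at least 4 of the 6 fits that left out a library. Bub1, a mitotic checkpoint kinase, had 0 counts in blood and 123 in spleen, at least 45.6-fold higher in spleen against a floor of 3 counts over the group, without passing.

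Cytokine receptor chains gave 1 rising and 1 falling gene of 26, with a median log2 fold change of 0.25. Il17ra, the shared chain of the IL-17 receptors, had 515, 566 and 594 CPM in blood and 259, 209 and 228 CPM in spleen (1.26 ± 0.24, edgeR adjusted p = 0.00398). Il1r2, the decoy receptor of IL-1 and a marker of activated Treg, had 1.30, 2.50 and 0.326 CPM in blood and 36.2, 39.5 and 33.3 CPM in spleen (-4.72 ± 0.66, adjusted p = 0.00015). Both were apart and passed without any single library. Of 20 granule and natural killer receptor genes, Ctsw, a cysteine protease of cytotoxic cells, rose and Cst7, an inhibitor of such proteases, fell. Ctsw had 124, 136 and 135 CPM in blood and 44.4, 31.4 and 46.9 CPM in spleen (1.69 ± 0.22, adjusted p = 6.38e-05). Cst7 had 19.4, 11.7 and 17.7 CPM in blood and 138, 171 and 124 CPM in spleen (-3.15 ± 0.37, adjusted p = 2.34e-05). A protease and an inhibitor of its family thus moved in opposite directions, and the median of that list was -0.42.

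Glycolysis and hypoxia genes gave 1 of 22, higher in blood, with a median log2 fold change of 0.17. This was Eno1, a glycolytic enolase, at 954, 924 and 919 CPM in blood and 481, 468 and 475 CPM in spleen, with narrow replicates and no overlap (0.97 ± 0.12, edgeR adjusted p = 6.38e-05). Txnip, which restrains glucose uptake, had 1434 to 2736 and 618 to 1231 CPM, just outside the threshold (1.15 ± 0.30, adjusted p = 0.0511). Of 33 S100, annexin and cytoskeletal genes, Flna, the actin crosslinker filamin A, rose (1829 to 1927 against 630 to 1080 CPM, 1.17 ± 0.30, adjusted p = 0.0467), and the median was 0.36. It passed in none of the fits that left out a library. Of 28 interferon-stimulated genes (median 0.13) 0 passed in edgeR's test of 30 libraries, against 7 at an unadjusted p below 0.05, 3 by DESeq2, 7 by limma-voom and 10 in edgeR's fit of the 6 libraries. Of 22 sterol and fatty acid synthesis genes (median 0.28) 0 passed, against 4 at an unadjusted p below 0.05, 1 by DESeq2, 3 by limma-voom and 3 with 6 libraries. Over all 16 T cell lists, 348 different genes were tested, 10 rose and 27 fell, and 5 of the 10 and 13 of the 27 passed in every fit that left out a library. With 6 libraries, 116 of the 330 list members tested passed, against 11.4% of all genes tested.

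**Figure D3:**
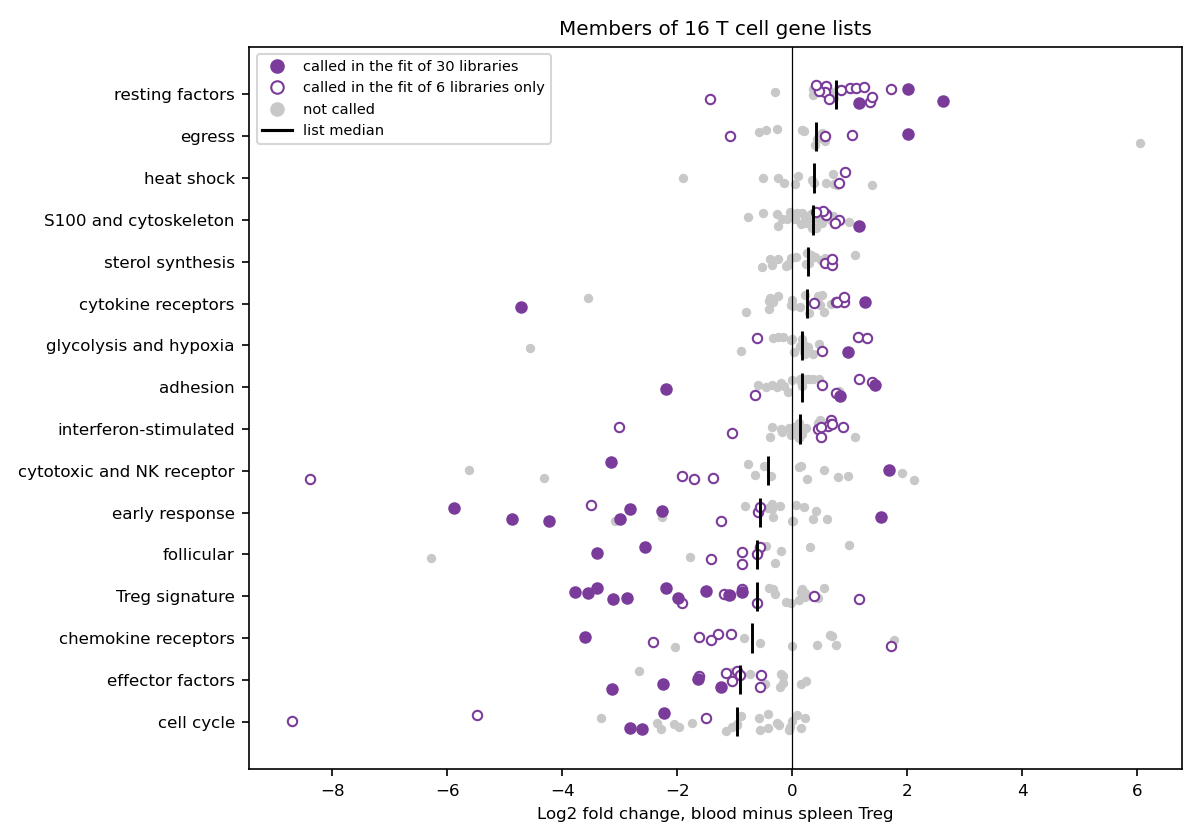
Log2 fold change, blood minus spleen Treg, of every tested member of 16 T cell gene lists, with the median of each list as a black bar. Filled purple points passed with 30 libraries, open ones with the 6 libraries only, and grey ones in neither; the resting factors lie furthest to the right and the cell cycle genes and effector factors furthest to the left by median.

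The 12 genes with the smallest p among those at least 2-fold higher in blood had log2 fold changes of 1.04 to 2.01 and edgeR adjusted p of 6.38e-05 to 0.00429. Besides Klf2, Klf3, Ctsw and Il17ra they were Zkscan14, Tagap, Acss2, Klhl6, Tent5c, Apol9b, Galnt10 and Atp1b3. Tagap, a GTPase-activating protein of activated T cells, had 275, 315 and 259 CPM in blood and 93.4, 77.8 and 84.9 CPM in spleen. Tent5c, a poly(A) polymerase, had 398 to 512 and 138 to 162 CPM, and Klhl6, a ubiquitin ligase adaptor of lymphocytes, had 578 to 761 and 242 to 298 CPM. Acss2, which makes acetyl-CoA from acetate, had 102 to 132 and 48.0 to 60.3 CPM. Apol9b had 29.1 to 38.3 and 8.30 to 9.48 CPM, and since Apol9a is a near-identical copy, reads of the pair may have been split. The groups of each were apart, and all 12 passed without any single library, with adjusted p of at most 0.0383.

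Among the genes at least 2-fold lower in blood, the 12 with the smallest p had log2 fold changes of -2.72 to -8.28 and edgeR adjusted p of 1.62e-05 to 9.11e-05. Besides Pdcd1, Cst7, Ccr8, Egr3, Egr2, Tnfrsf9 and Ebi3 they were Penk, Tnfsf11, Bcat1, Cc2d2a and Ces2c. Penk, the precursor of the enkephalin opioid peptides, had the smallest p of all genes, at 3.52, 8 and 5.64 CPM in blood and 246, 308 and 177 CPM in spleen (-5.41 ± 0.57, adjusted p = 1.62e-05). Tnfsf11 (RANKL), a ligand of the TNF family that acts on dendritic cells and osteoclasts, had 17.2, 15.2 and 10.2 CPM in blood and 85.4, 114 and 81.2 CPM in spleen (-2.72 ± 0.31, adjusted p = 2.34e-05). Bcat1, the cytosolic transaminase of branched-chain amino acids, had 0.0925 to 0.596 and 6.81 to 12.9 CPM. Ces2c, a carboxylesterase, had 0.278 to 0.488 and 11.3 to 23.4 CPM, and lies in a family of similar genes. Cc2d2a, a protein of the ciliary base, had 1 count over the 3 blood libraries and 394 over the 3 spleen libraries, a ratio of 438 with a 95% counting interval of 78.2 to 17348. All 12 were apart and passed without any single library, with adjusted p of at most 0.00260.

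Markers of other cell types took under 0.3% of counts per list in all 6 libraries. The summed share of the 14 platelet genes, Itgb3 included, is given above. Of them Pf4, a platelet chemokine, had 11, 398 and 296 counts in blood and 0 in every spleen library. It was at least 211-fold higher in blood against a floor of 3 counts over the spleen libraries. Of 12 platelet genes tested, Nrgn and Itgb3 passed, both higher in blood, and 8 of 11 passed with the 6 libraries. Nrgn had 1.63, 22.7 and 20.9 CPM in blood and 0 to 0.629 CPM in spleen (5.23 ± 1.16, edgeR adjusted p = 0.0179), and so followed Pf4 in being low in blood replicate 2. B cell genes took 0.251% of counts in blood replicate 2, against 0.0835% and 0.0768% in replicates 4 and 5. The spleen libraries had 0.139% to 0.195%. Ighm was a large part of these sums, at 562 to 921 CPM of the unscaled total in blood and 999 to 1311 CPM in spleen. It had 641 and 602 CPM in blood and spleen Tconv, so the sums do not track B cells alone. Cd79a of the same list had 1577, 247 and 181 counts in blood and 259, 248 and 177 in spleen. Of the 18 genes, 16 had a log2 fold change above 0 and 2 below (median 1.26). Of them 0 passed in edgeR's test, DESeq2 or limma-voom, with 0 at an unadjusted p below 0.05. Erythroid genes took 0.00616% to 0.0206% in blood and 0.00554% to 0.00593% in spleen. Of 9 tested, 6 had a log2 fold change above 0 and 3 below (median 3.37). The globin gene Hbb-bs had 80.6, 32.2 and 19.1 CPM of the unscaled total in blood and 0, 6.97 and 0.932 CPM in spleen. None of the 9 was called by edgeR, and 4 were higher in blood at an unadjusted p below 0.05. DESeq2 called 1 higher, and limma-voom 4 higher and 1 lower. The part of these other cells in the other results was not tested.

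The 19 monocyte and macrophage genes took 0.0337% to 0.0405% of counts in blood and 0.0335% to 0.0389% in spleen. Of 18 tested, 4 had a log2 fold change above 0 and 14 below, and 0 passed in edgeR's test. At an unadjusted p below 0.05, 5 were lower in blood. DESeq2 called 1 higher and 3 lower, and limma-voom called 3 lower. The complement genes C1qa and C1qb, which splenic macrophages express, had 0 counts in blood and 113 and 196 in spleen, at least 41.9-fold and 72.6-fold higher in spleen. Lyz2 of the same list went the other way, with 484, 76 and 580 counts in the blood and 65, 32 and 28 in the spleen libraries. Genes that passed and that macrophages also express included Hmox1 (haem oxygenase) and Lilrb4a, which are examples and not the full set. Hmox1 had 1.02 to 1.52 CPM in blood and 9.98 to 18.4 CPM in spleen (-3.49 ± 0.60, edgeR adjusted p = 0.0017). Lilrb4a had 0 to 0.139 and 3.20 to 13.1 CPM (-6.67 ± 1.08, edgeR adjusted p = 0.00129). Both genes are named after their values were seen, and whether their transcripts come from T cells was not tested. The neutrophil, dendritic cell, stromal and other lymphocyte lists gave 0 calls in edgeR's test and 0, 1, 1 and 1 genes at an unadjusted p below 0.05. DESeq2 called 0, 1, 1 and 1 of them and limma-voom 0, 0, 2 and 1. After removal of all genes of the other-cell lists, 273 genes passed. Without blood replicate 2 (most B cell transcripts) and spleen replicate 3 (lowest depth) together, 96 passed, 18 higher and 78 lower, of which 84 were among the 272.

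**Figure D4:**
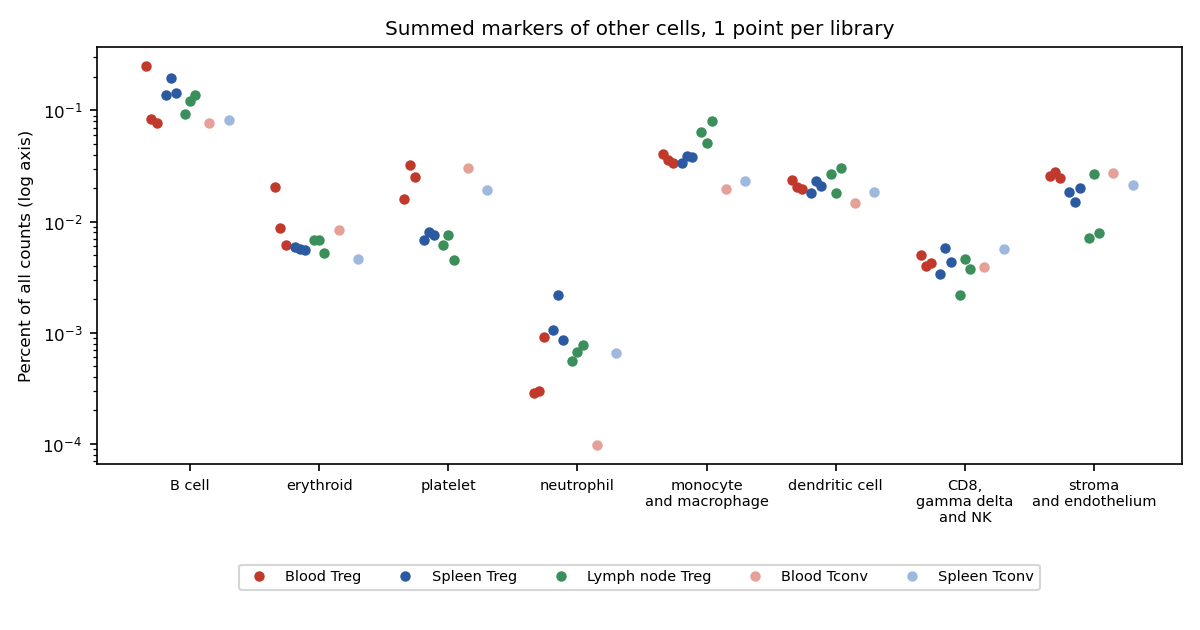
Percent of all counts (log axis) taken by 8 lists of markers of other cells, 1 point per library, in Treg of blood, spleen and lymph node and in Tconv of blood and spleen. Platelet genes are higher in the blood than in the spleen Treg libraries, and blood Treg replicate 2 has the highest B cell and erythroid points. The platelet list includes Itgb3 and the B cell list includes Ighm.

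One transcript took a large part of the blood libraries. The non-coding gene Gm26917 (chr17:39843013-39846341), which lies in a ribosomal RNA repeat, made up 2.20% to 2.49% of counts in blood Treg and 0.26% to 0.346% in spleen Treg. Its log2 fold change was 3.19 ± 0.73 (edgeR adjusted p = 0.0228), and it passed in none of the fits that left out a library. In Tconv its share was 0.301% in blood and 0.408% in spleen, and in liver Treg it was 2.12% to 4.67%, so the high share was seen in blood and liver Treg and not in blood Tconv. The scaling factors were 0.965 to 1.02 in blood and 1.11 to 1.19 in spleen Treg. What part this transcript has in the other changes was not tested.

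The same blood libraries were also set against lymph node Treg, the Treg of another lymphoid organ, so the values below share the blood samples with those above. Of 17909 genes, 571 passed (3.19%), 206 higher (1.15%) and 365 lower (2.04%) in blood. Klf2 had 557, 486 and 681 CPM in lymph node replicates 6, 7 and 10, and was higher in blood with a log2 fold change of 1.99 (edgeR adjusted p = 0.00228). S1pr1 had 714 to 812 CPM there and did not pass (0.67, adjusted p = 0.388). Ccr7 had 865 to 1010 CPM and did not pass either (0.50, adjusted p = 0.8). Egr2 had 134, 118 and 189 CPM (-5.41, adjusted p = 5.21e-06), Ccr8 96.0, 165 and 151 CPM (-4.68, adjusted p = 2.75e-06) and Penk 87.8, 248 and 181 CPM (-4.91, adjusted p = 8.55e-06), all above every blood library. Ctsw, first by p against spleen among the genes higher in blood, had 105 to 131 CPM in lymph node against 124 to 136 CPM in blood (0.15, adjusted p = 0.773).

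The lymph node libraries limit that second comparison. They had 97.9 to 154.9 CPM of Xist (here per unscaled library total) and nearly no Y-linked transcripts, while the blood, spleen and liver Treg libraries had Y-linked transcripts and nearly no Xist, so sex and source cannot be told apart against lymph node. The blood and spleen libraries were alike in having Y-linked transcripts and nearly no Xist. Lymph node replicate 6 lay at a distance of 28.5 to 31.7 from the spleen libraries and replicates 7 and 10 at 58.7 to 60.8. Foxp3 was 154, 72.3 and 67.5 CPM in replicates 6, 7 and 10. Without replicate 6, 2547 genes passed against lymph node, without replicate 7 it was 143 and without replicate 10 it was 193. Without both 7 and 10, 39 passed, with the remaining library assumed to vary like the others. Leaving out blood replicate 2, 4 or 5 left 260, 179 or 150 calls.

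Tconv of blood and spleen had 1 library each, which allows no test and no replicate check. Of the 77 genes higher in blood Treg, 15 (19.5%) were at least 2-fold higher in blood Tconv on the log2(CPM + 1) scale, against 2.5% of all genes, and 0 were at least 2-fold lower. Of the 195 genes lower in blood Treg, 59 (30.3%) were at least 2-fold lower in blood Tconv, against 3.58% of all genes, and 0 at least 2-fold higher. The median log2 ratio in Tconv was 0.41 for the first set, -0.63 for the second and 0 over all genes. Median CPM over blood and spleen Treg was 165 in the first set, 16.4 in the second and 6.65 over all genes. Genes near 0 can hardly reach 2-fold with 1 CPM added, so the shares over all genes are not matched for level. Klf2 stood at 1910 CPM in blood and 821 CPM in spleen Tconv. Nr4a1 was read at 6.84 and 107 CPM, Egr2 at 2.73 and 30.6 CPM and Penk at 0.433 and 13.6 CPM. These 4 differed in Tconv in the direction they had in Treg. S1pr1 had 859 and 816 CPM and Ccr8 6.28 and 7.46 CPM, nearly level between the Tconv libraries. Whether the difference between blood and spleen is of another size in Treg than in Tconv was not tested.

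**Figure D5:**
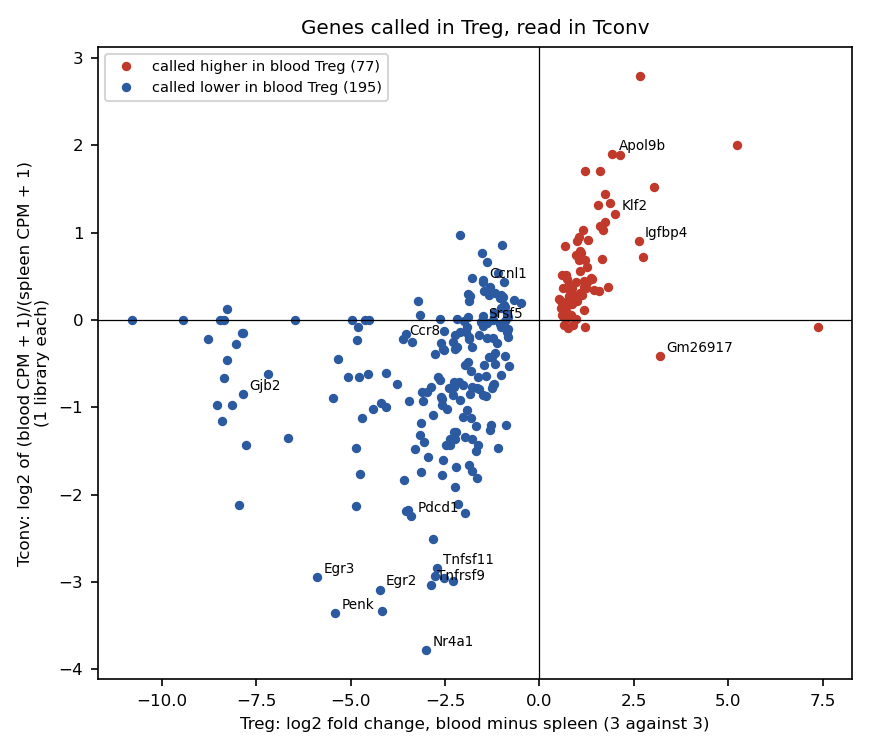
Each point is 1 of the 272 genes called between blood and spleen Treg, by its log2 fold change in Treg (3 against 3 libraries) and by the log2 ratio of blood to spleen Tconv (1 library each, 1 CPM added). Most red points lie above 0 and most blue points below it, with Nr4a1, Penk and Egr2 among the lowest and Gm26917 a red point below 0.

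Promoter windows of 300 bases were listed in RefSeq for 60 of the 77 genes higher and 140 of the 195 lower in blood, and for 11569 of the genes tested. CCACCC, searched on both strands like every motif here, was held by at least 1 listed promoter of 53.3% of the higher genes, 42.9% of the lower ones and 40.8% of all. TGANTCA, the AP-1 type site, was held by 4 of the 60 higher genes, 14 of the 140 lower ones and 6.61% of all, and the interferon-stimulated response element by 3 of 60, 5 of 140 and 3.88%. The CArG box was held by 0 of the 60 higher genes, 3.57% of the lower ones and 1.59% of all, and TGACGTCA, the cyclic AMP response site, by 1.67%, 2.86% and 3.34%. The last 2 motifs were added after the values were seen. The windows of Klf2, Klf3 and Egr2 printed above each hold CCACCC, and so do 4721 of the 11569 genes.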

How the data were processed

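Raw counts per gene for 40 libraries of sorted mouse CD4+ T cells were deposited by the authors as whole numbers, with no sign of scaling. Per the submitters' processing notes, the tools were FastQC, Trim Galore, STAR, featureCounts, MultiQC, DESeq2 and DESeq, and the genome build was mm10. Versions, the annotation release and the use of strand are not given in the sources used here, so reads of overlapping genes on opposite strands may be mixed. The kit reads 3′ ends, so counts were not divided by gene length.

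Genes passing filterByExpr in the 30 Treg libraries were scaled by TMM and fitted with a mean per source (edgeR 4.0.16, R 4.3.3, robust quasi-likelihood F test). Contrasts were blood minus spleen and blood minus lymph node Treg, with Benjamini-Hochberg adjusted p below 0.05 over all genes tested as the call. Log2 fold changes carry their standard error, which in the main fit draws on the spread over all 30 Treg libraries. The script was tested on simulated data. Tconv were described by log2(CPM + 1), with TMM scaling over all 40 libraries, unfiltered, unlike the Treg values. A fold against 0 counts used a floor of 3 counts over the group, and intervals and floors cover counting error only. Distances used log2 CPM of the 500 genes most variable over the blood, spleen and lymph node Treg libraries. The replicates of blood and spleen share numbers 2 and 4 only, which did not pair the samples. Alternatives were other library sets, DESeq2 size factors, no filter, DESeq2 1.42.0 (Wald), limma 3.58.1 (voom with sample weights), other-cell marker genes taken out, a replicate block and each library left out. Figures used matplotlib 3.10.9 in Python 3.11.15.

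Genes named are the 12 higher and 12 lower with the smallest p among calls of at least 2-fold, leaving out predicted genes, receptor segments and markers of other cells, and up to 4 members per list with the smallest p. Some list members are not reported by name here. Other genes were chosen after their values were seen. The libraries, the 24 gene lists and the tests were chosen with earlier results of these data known, so counts over the lists are descriptions.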

Additional observations from a re-analysis of the deposited data

Results flagged for a closer look

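A set of 6 genes described in the lists were higher in all blood Treg than in all spleen Treg libraries, without passing the test, while the log2 ratio of the single Tconv libraries was below 0, and within 0.3 of it except for Idi1. The difference between Treg and Tconv was not tested. Gbp2, an interferon-induced GTPase, had a log2 fold change of 0.88 in Treg and a log2 ratio of -0.16 in Tconv. Actb and Ldha had 0.53 and 0.51 in Treg against -0.28 and -0.12 in Tconv. The sterol genes Sc5d and Srebf2 had 0.57 and 0.69 in Treg and -0.22 and -0.0737 in Tconv. Idi1, an isomerase of sterol synthesis, had 1.09 in Treg and -1.48 in Tconv, where blood had 2.86 CPM and spleen 9.75 CPM.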

How the results depend on the processing

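Between blood and spleen Treg, the count of 272 calls (77 higher, 195 lower in blood) became 1531 (779 and 752) with the 6 libraries alone, 781 (217 and 564) with the Wald test of DESeq2 and 1829 (882 and 947) with limma-voom. Leaving out 1 library gave 81 to 155 calls, 18 to 34 higher and 61 to 129 lower, from fewer samples. The added fit without blood replicate 2 and spleen replicate 3, chosen after seeing the data, gave 96 (18 and 78). Without the filter 210 passed, 47 of them higher. With 9 libraries, DESeq2 size factors or other-cell genes removed, 327, 284 and 273 passed. Of the 272, none was called in the opposite direction in any of these fits. The T cell lists held 37 called members, 116 with 6 libraries, 60 with DESeq2, 98 with limma-voom, 18 to 27 with 1 library left out and 21 in the added fit.

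Klf2 kept its call in every alternative (1.91 to 2.14). S1pr1 passed with 6 libraries (1.02), 9 libraries (1.02) and limma-voom (1.07), and not otherwise, with adjusted p from 0.000182 to 0.653. Cd69 passed in none (adjusted p 0.0837 to 0.864). No value of the 77 genes followed changed the sign of a call.

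Against lymph node, 571 calls (206 and 365) became 159 (56 and 103) with 6 libraries, 1628 (716 and 912) with DESeq2, 3592 (1894 and 1698) with limma-voom, and 39 (3 and 36) without lymph node replicates 7 and 10. Leaving out 1 library gave 143 to 2547, 27 to 1436 higher and 103 to 1111 lower. The cause of these moves was not tested.

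Deviations of same-numbered blood and spleen libraries correlated at -0.037 and 0.059 for numbers 2 and 4, so the numbers were not taken as pairs. With the replicate block, 247 genes passed against spleen (79 and 168), 204 of them among the 272, and 7 against lymph node (0 and 7). Depth limits genes near 0, where 3 counts are 0.138 to 0.246 CPM.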

Other observations

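Some genes outside the lists, chosen after their values were seen, add to the account of blood and spleen Treg. Cd83, a surface protein of activated lymphocytes that stabilises MHC class II, stood at 49.2, 28.5 and 27.7 CPM in blood and at 361, 408 and 265 CPM in spleen (log2 fold change -3.29 ± 0.48, edgeR adjusted p = 0.000295). Tnfrsf8 (CD30), a costimulatory receptor, had 0.186 to 1.02 and 21.5 to 32.2 CPM (-5.33 ± 0.82, adjusted p = 0.000514). Epcam, an adhesion protein, had 4.81 to 5.04 and 28 to 33.7 CPM (-2.63 ± 0.45, adjusted p = 0.0017). Gjb2, a gap junction connexin, had 3 counts over the blood and 695 over the spleen libraries, a ratio of 258 with a 95% counting interval of 87.8 to 1252. These 4 were also lower in blood than in lymph node Treg, with edgeR adjusted p of 0.000479 for Cd83, 0.00316 for Tnfrsf8, 0.00805 for Epcam and 0.00935 for Gjb2. In the other direction, Msn (moesin), which links actin to the membrane and is needed for T cell egress in mice, had 2615 to 2966 CPM in blood and 1510 to 1607 CPM in spleen (0.84 ± 0.16, adjusted p = 0.00563). All 5 passed in every fit that left out a library. Tsc22d3 (GILZ), a target of glucocorticoids, had 924 to 2010 and 250 to 684 CPM (1.61 ± 0.40, adjusted p = 0.0349), and lost its call without blood replicate 4 or 5 or spleen replicate 2 or 4.

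A few genes, taken from nuclear and splicing transcripts that were grouped after their values were seen, had unlike values in Treg and Tconv. No enrichment was computed for them. Hnrnph1, a splicing factor, had 37.1, 44.2 and 49.5 CPM in blood and 133, 129 and 106 CPM in spleen (-1.49 ± 0.21, edgeR adjusted p = 0.000138), while its single Tconv libraries had 204 and 198 CPM. Srsf5 had 108 to 162 and 290 to 444 CPM in Treg (-1.54 ± 0.31, adjusted p = 0.00826) and 678 and 689 CPM in Tconv. The cyclin L gene Ccnl1 had 29.4 to 52.9 and 103 to 131 CPM in Treg (-1.49 ± 0.36, adjusted p = 0.0293) and 359 and 266 CPM in Tconv. The non-coding Neat1 had 10.4 to 20.3 and 55.8 to 78.2 CPM in Treg (-2.23 ± 0.54, adjusted p = 0.0328) and 129 and 162 CPM in Tconv. Malat1 had 337 to 439 and 741 to 1183 CPM in Treg, just outside the threshold (-1.30 ± 0.34, adjusted p = 0.0519), and 1080 and 1248 CPM in Tconv. Hnrnph1 passed in every fit that left out a library, Srsf5 lost its call without blood replicate 2 or 5, and Ccnl1 and Neat1 without any single library. The non-coding Gm26917 went the opposite way in Treg, as given above. The difference between Treg and Tconv was not tested.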
